A study of Mus musculus with 12 samples.

Results

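The genes described here encode apolipoproteins, the protein components of plasma lipoproteins, together with the transfer protein that builds very low density lipoprotein (VLDL). They are defined by gene identity, although the group was proposed with earlier results of these data known. The 10 genes Apoa1, Apoa2, Apoa4, Apoa5, Apob, Apoc1, Apoc2, Apoc3, Apoe and Mttp were looked up by their Ensembl identifiers in a table of 22309 genes, and all 10 were present. They were compared between 6 livers of mice injected with an adenovirus that overexpresses ChREBP and 6 control livers of mice injected with an adenovirus that overexpresses GFP, a fluorescent protein. All mice were male, of strain C57BL/6J, aged 10 weeks by the labels and fed a standard diet that is rich in carbohydrate. Each liver came from a separate mouse and was hybridised to its own Affymetrix array, some weeks after a single intravenous injection.

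ChREBP, a transcription factor, responds to glucose metabolites and switches on glycolytic and lipogenic genes in hepatocytes. Both groups carried an adenovirus and no liver of an uninjected mouse was compared. According to the methods of the study, mice that did not overexpress the delivered protein were removed from the cohort, so both groups were selected for a successful injection. The level of ChREBP itself and cell type markers were not analysed here, because the files carry identifiers without gene names and names were given only for these 10 genes. The arrays measured RNA of whole liver, in which fewer cells of a type and less RNA per cell cannot be told apart.

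The liver packs triglyceride for export into VLDL. Mttp, the microsomal triglyceride transfer protein, loads lipid onto the growing chain of Apob, the structural protein of the particle, inside the endoplasmic reticulum. In the circulation the particle gains and loses small exchangeable apolipoproteins. Among these Apoc2 is the cofactor that lipoprotein lipase needs, Apoc3 restrains the lipase and the uptake of remnants, Apoa5 favours lipolysis, Apoa4 is carried by triglyceride-rich particles and high density lipoprotein (HDL), and Apoe is the ligand for receptor-mediated clearance. Apoa1 and Apoa2 are the main proteins of HDL, and Apoc1 is an exchangeable apolipoprotein that acts on lipases and on clearance.

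Levels are given on the log2 scale of the deposited values, on which 1 unit is a 2-fold difference, and changes are ChREBP minus GFP. The median of all genes lay between 5.99 and 6.09 in each array. All 10 genes lay near the top of this scale, above at least 96.8% of all genes, and 6 of them belonged to the brightest 1% (Apoa1, Apoa2, Apob, Apoc1, Apoc3 and Apoe). Apoa2 had the highest mean of all 22309 genes. A position on this scale also depends on the probes and is no measure of the amount of 1 transcript relative to another. Of the 224 genes in the brightest 1%, 3 (1.34%) changed at least 1.5-fold at an adjusted p under 0.05 (limma), against 5.26% of all genes. In the brightest 10%, which holds all 10 genes, that share was 8.96% of 2231 genes. The part of signal saturation in these shares was not tested. Some livers stood apart from their group. ChREBP livers 4, 5 and 6 and GFP liver 6 held between 38 and 105 genes that were more than 4-fold above the median of their 5 group mates, against 0 to 4 such genes in each remaining liver. None of the 10 apolipoprotein and VLDL genes was among them (0 in every liver), and changes without these livers are given below.

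ChREBP livers differed from GFP livers in 6 of the 10 genes. Apoa4, Apoc2, Mttp and Apoc3 were higher in ChREBP livers, Apoa1 and Apob were lower, and Apoa2, Apoa5, Apoc1 and Apoe did not pass the test. The test was limma across all 22309 genes with Benjamini-Hochberg adjustment, and a gene was called at an adjusted p under 0.05. By this rule 26.3% of all genes were called, with 12.2% higher and 14.0% lower. Among genes in the brightest 10% the share called was 49.8%, and in the brightest 1% it was 43.3%. The 6 of 10 is therefore near the share of genes of like brightness. Of the 224 genes in the brightest 1%, which include Apoa1 and Apob, 24 were called higher and 73 lower. Lower calls also outnumbered higher calls in the brightest 10%. A call as lower was thus common among genes as bright as Apoa1 and Apob. Only Apoa4 and Apoc2 changed by at least 1.5-fold, a size reached by 3.73% of all genes as a rise and by 1.52% as a fall. The median log2 change of the 10 genes was 0.03, against -0.05 for all genes. The groups did not overlap for the 6 called genes, 4 of which had all ChREBP livers above all GFP livers and 2 all ChREBP livers below. This held for 14.4% of all genes, 7.68% upward and 6.72% downward. The share among genes of like brightness was not counted, so no excess over such genes can be read from this.

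**Figure D1:**
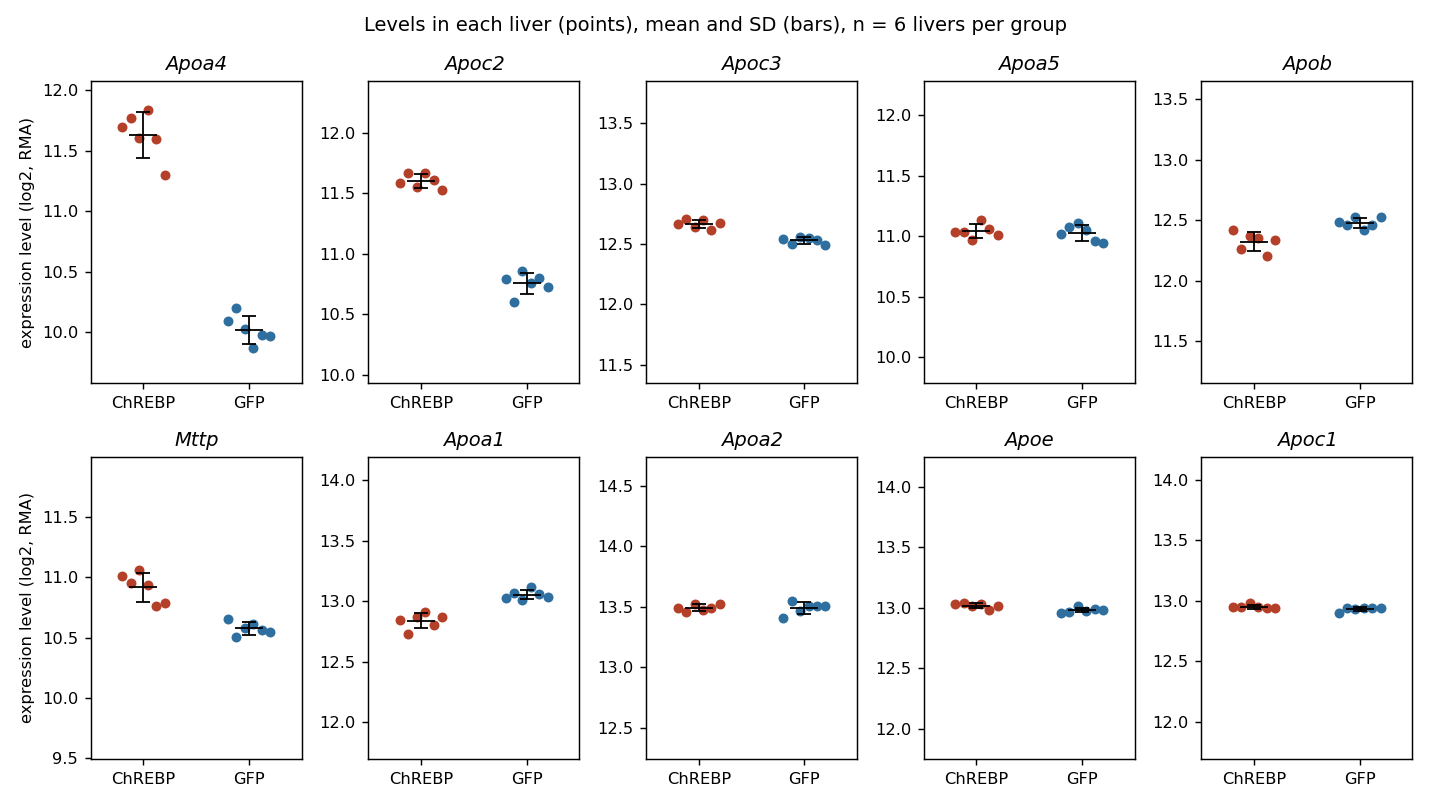
Expression level (log2, y axis) of each gene in 6 ChREBP livers (left, red) and 6 GFP livers (right, blue), with livers 1 to 6 drawn from left to right within a group. Bars show the mean and SD, and every panel spans the same number of log2 units. Apoa4 and Apoc2 are set far apart between the groups, whereas Apoa2, Apoa5, Apoc1 and Apoe overlap.

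Apoa4 (ENSMUSG00000032080_at) showed the largest change of the 10 genes. Its level was 11.30 at the lowest, 11.65 at the median and 11.83 at the highest in ChREBP livers, against 9.87, 10.00 and 10.20 in GFP livers. The lowest ChREBP liver lay 1.09 log2 units above the highest GFP liver. The means were 11.63 ± 0.19 (SD, n = 6) in ChREBP and 10.02 ± 0.12 (SD, n = 6) in GFP livers, a log2 change of 1.61 (SE 0.08, limma adjusted p = 2.04e-08). This is a 3.06-fold higher level with a 95% confidence interval from 2.70 to 3.47, and the gene ranked 160 by size of rise among the 22309 genes. ChREBP liver 6 was the lowest of its group for Apoa4, 0.36 log2 units under the group median.

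Apoc2 (ENSMUSG00000002992_at), the lipase cofactor, was the other gene past 1.5-fold. Its level was 11.53 at the lowest, 11.60 at the median and 11.67 at the highest in ChREBP livers, against 10.60, 10.77 and 10.86 in GFP livers. Every ChREBP liver was at least 0.67 log2 units above every GFP liver. The means were 11.60 ± 0.06 (SD, n = 6) in ChREBP and 10.76 ± 0.09 (SD, n = 6) in GFP livers. The log2 change was 0.85 (SE 0.05, limma adjusted p = 4.10e-08), a 1.80-fold higher level with a 95% confidence interval from 1.67 to 1.93. In the RefSeq annotation Apoc2 lies within Gm44805, a read-through gene of Apoc4 and Apoc2. The probe set definition is not given, so whether the array value tells these transcripts apart is not known.

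Apoc3 (ENSMUSG00000032081_at), which opposes the lipase that Apoc2 serves, was also higher, with a smaller change of the signal. The difference between the changes of Apoc2 and Apoc3 was not tested. Apoc3 had the brighter signal, and a brighter probe set can respond less. Its level was 12.62 at the lowest, 12.67 at the median and 12.71 at the highest in ChREBP livers, against 12.49, 12.54 and 12.56 in GFP livers. The groups were separated by 0.06 log2 units. The log2 change was 0.14 (SE 0.03, limma adjusted p = 0.00938), a 1.10-fold higher level with a 95% confidence interval from 1.05 to 1.16. Without ChREBP livers 4, 5 and 6 and GFP liver 6 the change was again 0.14, but the call was lost (limma adjusted p = 0.0856).

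Apoa5 (ENSMUSG00000032079_at), in which loss of function raises plasma triglyceride in mice and humans, did not pass the test. Its level was 10.97 at the lowest, 11.03 at the median and 11.14 at the highest in ChREBP livers, against 10.94, 11.04 and 11.11 in GFP livers. The groups overlapped over most of their range. The log2 change was 0.02 (SE 0.04, limma adjusted p = 0.819) with a 95% confidence interval from -0.08 to 0.11, so a change of 1.5-fold in either direction lay outside this interval.

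Apoa1, Apoc3, Apoa4 and Apoa5 follow each other in this order on mouse chromosome 9 (RefSeq annotation, GRCm38.p6), with no other gene annotated between them. On chromosome 7, Apoc2 is followed by Apoc4, Apoc1 and Apoe. The sequences before the annotated start of 4 of these genes are shown because array signals of genes within each cluster moved unequally. They come from RefSeq (GRCm38.p6) and run 5′ to 3′ on the strand of the gene up to the base before its first annotated start. Capitals mark an E-box (CACGTG, which reads the same on both strands), the half-site of the carbohydrate response element that ChREBP binds with its partner Mlx. The region of Apoa4 is chr9:46240594-46240843 (plus strand), that of Apoc2 chr7:19677942-19678083 (minus strand, shortened where it enters Apoc4), that of Apoa5 chr9:46268358-46268607 (plus strand) and that of Apoa1 chr9:46228380-46228629 (plus strand).
Apoa4: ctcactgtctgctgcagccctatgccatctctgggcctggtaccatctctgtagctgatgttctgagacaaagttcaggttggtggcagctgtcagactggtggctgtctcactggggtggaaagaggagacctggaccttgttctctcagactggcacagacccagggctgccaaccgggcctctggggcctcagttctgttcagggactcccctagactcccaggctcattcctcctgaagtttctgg
Apoc2: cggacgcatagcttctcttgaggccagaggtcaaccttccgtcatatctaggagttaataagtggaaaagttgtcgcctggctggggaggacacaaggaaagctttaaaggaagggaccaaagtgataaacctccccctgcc
Apoa5: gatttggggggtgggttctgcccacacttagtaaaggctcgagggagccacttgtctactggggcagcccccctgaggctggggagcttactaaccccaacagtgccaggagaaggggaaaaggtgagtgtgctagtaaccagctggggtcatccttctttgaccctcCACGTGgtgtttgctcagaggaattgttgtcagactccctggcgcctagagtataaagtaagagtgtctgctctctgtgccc
Apoa1: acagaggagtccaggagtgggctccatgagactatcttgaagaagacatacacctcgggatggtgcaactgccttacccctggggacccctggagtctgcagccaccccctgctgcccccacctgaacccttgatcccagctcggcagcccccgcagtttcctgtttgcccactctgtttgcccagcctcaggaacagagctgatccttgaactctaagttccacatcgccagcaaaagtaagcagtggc
RefSeq windows of 250 bases before to 50 after a start were at hand for 8 of the 10 genes, in 12 windows, and not for Apoc1 and Apoc3. An E-box was found in both windows of Apoa5, 82 or 107 bases before the start depending on which start is taken, and in none of the 10 windows of the other 7 genes. Of all 32851 windows, 7.15% held an E-box. A strict pair of E-boxes with 5 bases between them was found in 0 of the 32851 windows, so this search could not set any gene apart. The matches describe exact letters in a short window only. Elements with other letters, or outside the window, would have been missed.

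Along the chromosome 9 cluster, Apoa1 was lower, Apoc3 slightly higher, Apoa4 about 3.06-fold higher, and Apoa5 overlapped between the groups. To test whether neighbours changed unequally, the difference between 2 genes was formed within each liver and compared between the groups by a two-sided exact permutation test, for 9 pairs with Benjamini-Hochberg adjustment over them. The smallest p that 924 arrangements can give is 0.00216. Apoa4 minus Apoa1 was -1.20 ± 0.21 (SD, n = 6) in ChREBP livers and -3.03 ± 0.13 (SD, n = 6) in GFP livers, so the log2 changes differed by 1.83 (exact permutation p = 0.00216, adjusted p = 0.00278). The change of Apoa4 exceeded that of its next neighbour Apoa5 by 1.60 and that of Apoc3 by 1.48 (exact permutation p = 0.00216, adjusted p = 0.00278 for each). Apoc3 minus Apoa1, neighbours that moved in opposite directions, was -0.17 ± 0.07 (SD, n = 6) in ChREBP livers and -0.52 ± 0.05 (SD, n = 6) in GFP livers, a difference of 0.35 (exact permutation p = 0.00216, adjusted p = 0.00278). Apoa5 and Apoa1 differed in their change by 0.23 (exact permutation p = 0.00216, adjusted p = 0.00278). Apoc3 and Apoa5 differed by 0.12 (exact permutation p = 0.00866, adjusted p = 0.00974). The changes are those of array values, in which a brighter probe set can respond less, so they show unequal change of the measured signals.

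Of the 3 genes examined in the chromosome 7 cluster, Apoc2 passed the test and Apoc1 and Apoe did not. Apoc4 was not analysed here. Apoc2 minus Apoe was -1.41 ± 0.05 (SD, n = 6) in ChREBP livers and -2.22 ± 0.07 (SD, n = 6) in GFP livers, so the changes differed by 0.81 (exact permutation p = 0.00216, adjusted p = 0.00278). Apoc2 minus Apoc1 was -1.35 ± 0.07 (SD, n = 6) in ChREBP livers and -2.18 ± 0.09 (SD, n = 6) in GFP livers, a difference of 0.83 (exact permutation p = 0.00216, adjusted p = 0.00278). Apoe and Apoc1 differed in their change by 0.02, which did not pass (exact permutation p = 0.152, adjusted p = 0.152). Mean levels were 13.00 for Apoe and 12.94 for Apoc1, against 11.18 for Apoc2, and a brighter probe set can respond less. The unequal change is therefore again one of measured signals.

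**Figure D2:**
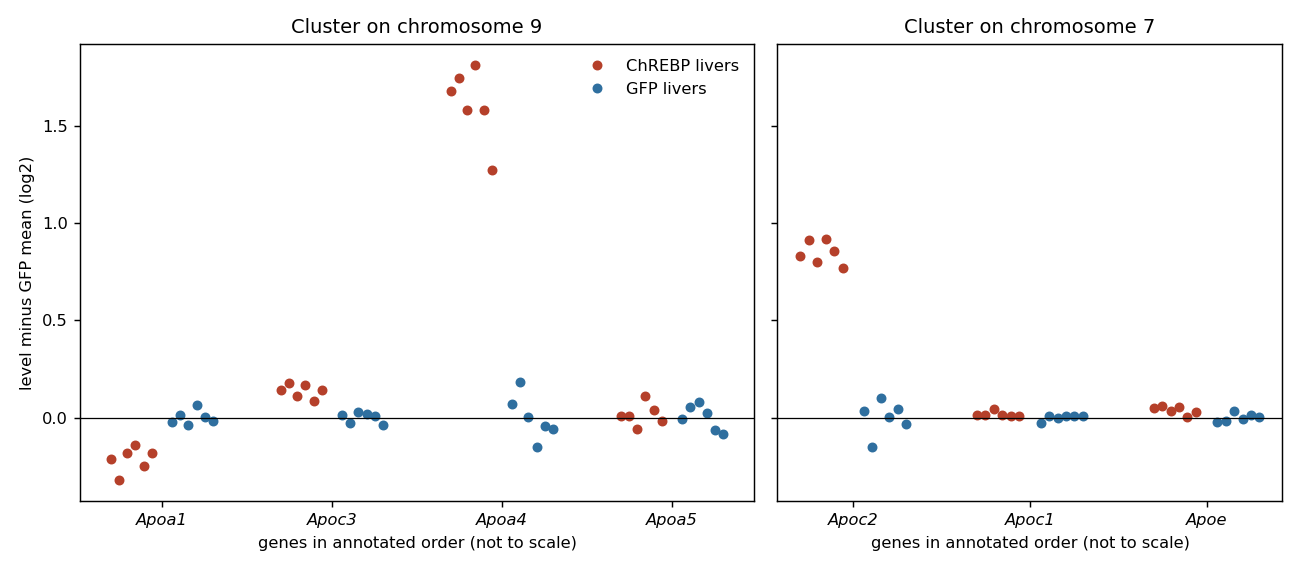
Level of each clustered gene in each liver minus the mean of the 6 GFP livers (log2, y axis), for ChREBP livers (left of each pair, red) and GFP livers (right, blue), with genes in annotated order along each chromosome and not to scale (Apoc4, between Apoc2 and Apoc1, was not analysed here). Of the genes drawn, Apoa4 with a mean change of 1.61 and Apoc2 with 0.85 lie farthest from 0, while Apoa1 lies below 0 in all 6 ChREBP livers.

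Mttp and Apob, the genes of VLDL assembly, were called in opposite directions, but the call of Apob depended on scaling and on livers kept. The difference between their changes was not tested. Mttp (ENSMUSG00000028158_at), which loads lipid onto Apob, was higher. Its level was 10.76 at the lowest, 10.94 at the median and 11.06 at the highest in ChREBP livers, against 10.50, 10.57 and 10.66 in GFP livers. The groups were 0.11 log2 units apart at their nearest livers. The log2 change was 0.34 (SE 0.06, limma adjusted p = 0.000484), a 1.27-fold higher level with a 95% confidence interval from 1.16 to 1.38. ChREBP livers 5 and 6 were the low ones, 0.18 and 0.16 under the group median, and without ChREBP livers 4, 5 and 6 and GFP liver 6 the change was 0.42 (limma adjusted p = 0.000607).

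Apob (ENSMUSG00000020609_at) was lower by a narrow margin. Its level was 12.21 at the lowest, 12.35 at the median and 12.42 at the highest in ChREBP livers, against 12.42, 12.47 and 12.53 in GFP livers. The highest ChREBP liver and the lowest GFP liver were only 0.0006 log2 units apart. The log2 change was -0.16 (SE 0.04, limma adjusted p = 0.0183), which is 0.898-fold with a 95% confidence interval from 0.841 to 0.958. The call was lost after a second quantile normalization (-0.10, limma adjusted p = 0.116), after cyclic loess normalization (-0.09, adjusted p = 0.181), and without ChREBP livers 4 and 5 (-0.13, adjusted p = 0.0565). It was lost as well without liver 6 of both groups (-0.15, limma adjusted p = 0.0587) and without all 4 of these livers (-0.12, adjusted p = 0.162).

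Of the 2 main HDL proteins, Apoa1 (ENSMUSG00000032083_at) was lower and Apoa2 (ENSMUSG00000005681_at) did not pass the test. The level of Apoa1 was 12.73 at the lowest, 12.85 at the median and 12.91 at the highest in ChREBP livers, against 13.01, 13.04 and 13.12 in GFP livers. All ChREBP livers lay below all GFP livers, by at least 0.10 log2 units. The log2 change was -0.21 (SE 0.04, limma adjusted p = 0.00131), which is 0.862-fold with a 95% confidence interval from 0.811 to 0.915. Apoa2 was at 13.45, 13.49 and 13.52 (lowest, median and highest) in ChREBP livers and at 13.41, 13.50 and 13.55 in GFP livers. The GFP livers enclosed the whole range of the ChREBP livers, and the log2 change was 0.00 (SE 0.04, 95% confidence interval -0.08 to 0.08, limma adjusted p = 0.955). Apoa2 held the brightest position on the array, and the interval refers to the deposited signal. The quantile normalization within RMA draws the brightest values of all arrays together. The deposited values could therefore hardly show a change of Apoa2, and a change of its RNA cannot be judged from this interval.

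Apoe (ENSMUSG00000002985_at) and Apoc1 (ENSMUSG00000040564_at), neighbours that are also made outside hepatocytes, Apoe by macrophages in particular, varied little between livers. Both lay near the top of the scale, and the part of signal saturation in this small spread was not tested. Apoe was at 12.98, 13.02 and 13.04 (lowest, median and highest) in ChREBP livers and at 12.96, 12.98 and 13.01 in GFP livers. The ranges overlapped by 0.03 log2 units, and the log2 change of 0.04 (SE 0.03, 95% confidence interval -0.03 to 0.11) did not pass the test (limma adjusted p = 0.411). The call depended on how the spread was estimated, since the test of the study's methods, which does not moderate it across genes, gave an adjusted p of 0.0445 for the same change over all genes. Apoc1 was at 12.94, 12.95 and 12.98 in ChREBP livers and at 12.90, 12.94 and 12.94 in GFP livers, a log2 change of 0.02 (SE 0.03, 95% confidence interval -0.05 to 0.09, limma adjusted p = 0.713). Both genes passed after cyclic loess normalization, Apoe with a change of 0.11 (limma adjusted p = 0.0214) and Apoc1 with 0.09 (adjusted p = 0.0477), and neither is called changed here.

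**Figure D3:**
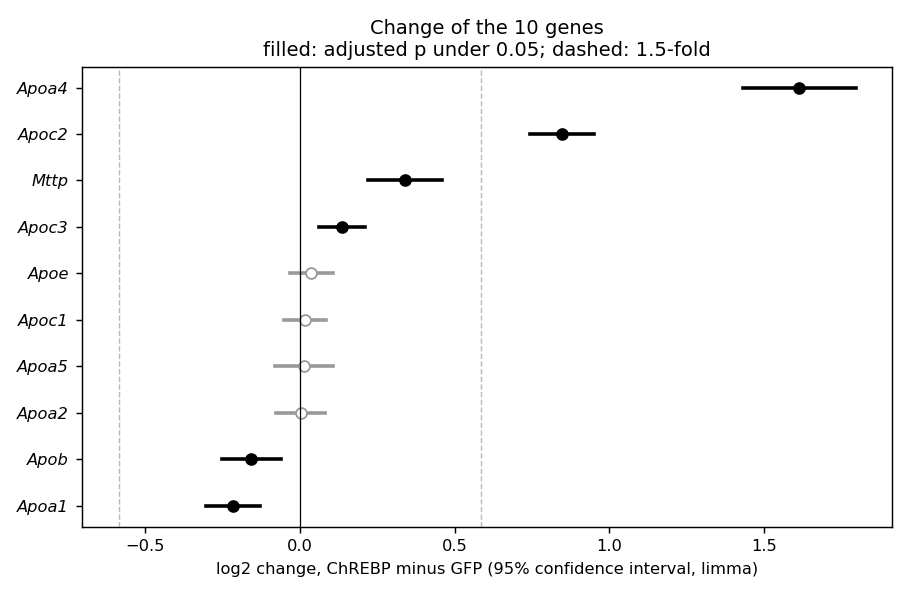
Log2 change (ChREBP minus GFP, x axis) of the 10 genes, ordered by size, with the 95% confidence interval from limma. Filled points passed an adjusted p under 0.05 over all 22309 genes, open points did not, and dashed lines mark a 1.5-fold change. Apoa4 (1.61) and Apoc2 (0.85) lie beyond the upper line and no gene lies beyond the lower one.

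Livers of 1 group also differed from each other across these genes. ChREBP liver 5 had the lowest value of its group for 5 of the 10 genes (Apob, Apoc1, Apoc3, Apoe and Mttp), and for none the highest. For Apoc1 this rests on 12.9404 in ChREBP liver 5 against 12.9406 in ChREBP liver 6. ChREBP liver 4 had the highest value for 4 genes (Apoa1, Apoa4, Apoa5 and Apoc2), and for none the lowest. Among GFP livers, liver 3 had the highest value for 5 genes (Apoa5, Apob, Apoc2, Apoc3 and Apoe). The range within the ChREBP group was 0.54 for Apoa4, 0.29 for Mttp and 0.21 for Apob on the log2 scale, against 0.33, 0.15 and 0.11 in the GFP group, whereas for Apoc2 it was 0.15 in ChREBP and 0.25 in GFP livers. When ChREBP livers 4, 5 and 6 and GFP liver 6 were left out, Apoa4 kept a log2 change of 1.66 (limma adjusted p = 1.06e-06), Apoc2 one of 0.84 (adjusted p = 2.03e-05) and Apoa1 one of -0.24 (adjusted p = 0.0134).

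The genes whose pattern over the 12 arrays was most like that of Apoa4 were sought by the root mean square difference of the values after each gene was set to 0 at its GFP mean. The nearest was ENSMUSG00000033880_at, with a difference of 0.13 log2 units and levels of 9.56 ± 0.14 (SD, n = 6) in ChREBP and 7.99 ± 0.13 (SD, n = 6) in GFP livers. The next was ENSMUSG00000030800_at, with a difference of 0.15 and levels of 7.64 ± 0.21 (SD, n = 6) in ChREBP and 6.03 ± 0.12 (SD, n = 6) in GFP livers. This measure mainly selects genes with a like shift between the groups. Their closeness to Apoa4 in that shift follows from the choice, and whether they vary with it from liver to liver was not tested. The files used here do not pair these identifiers with gene names.

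**Figure D4:**
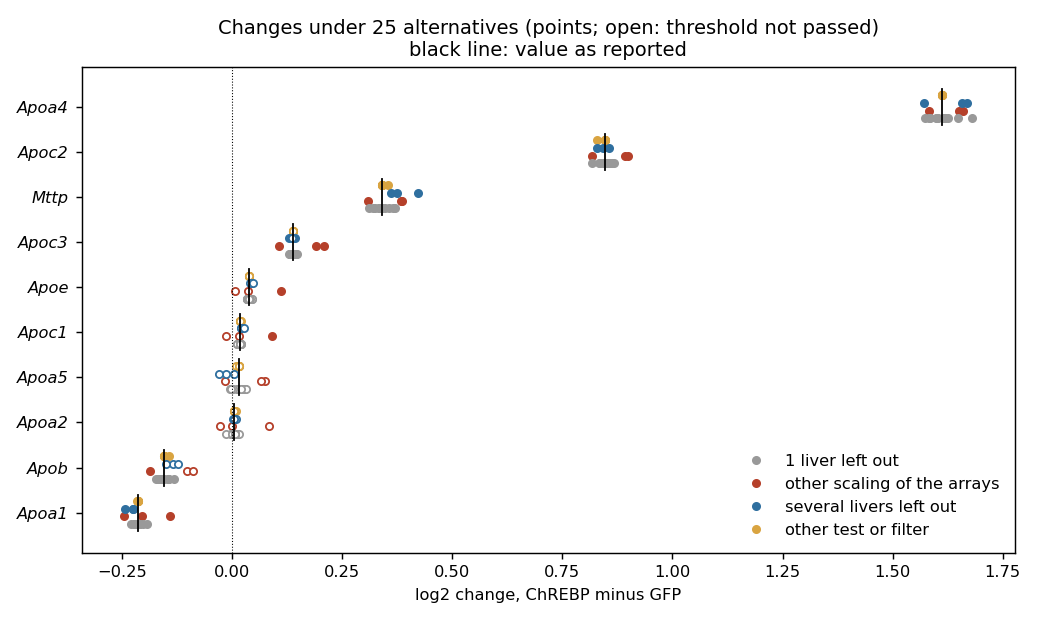
Log2 change (ChREBP minus GFP, x axis) of each gene under 25 alternative scalings, tests, filters and sets of livers (points, coloured by kind, open where the threshold was not passed) and as reported (black lines). Apoa4, Apoc2, Mttp and Apoa1 passed under all 25 alternatives and Apoa2 and Apoa5 under none, while Apob passed under 20 and Apoc3 under 23. A second quantile normalization makes the top value equal in all arrays, so for Apoa2, the brightest gene, it could not show a change.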

How the data were processed

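Total RNA of 12 livers was amplified, labelled with biotin and hybridised to Affymetrix gene ST arrays, 1 per liver. The labels name a mouse design and the methods a human one, and the identifiers are those of mouse genes. The deposited values are log2 levels that the authors computed with RMA (background correction, quantile normalization, summary per gene), which removes changes shared by most genes and compresses values near the background. Versions of RMA and Partek and the probe set definition are not given in the sources used here. The number of arrays limits the precision, and no depth applies. All 22309 rows and 12 columns were used, with 0 missing values.

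Members and lists were chosen with earlier results of these data known. All 10 members are named, plus the 2 other genes nearest in pattern to the member with the largest change. The planned lists of other lipoprotein genes and cell type markers could not be applied, because 0 of 22309 identifiers matched the annotation table.

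ChREBP minus GFP was tested with limma 3.58.1 (lmFit, eBayes) under R 4.3.3. Its two-sided p-values were adjusted over all genes by Benjamini-Hochberg. Pairs were tested by exact permutation in scipy 1.17.1. The limma fit and the pair test were each run on simulated data with known changes before use. Replicate numbers were not taken as pairs, since deviations of same-numbered livers correlated between -0.06 and 0.24 and only 1 of 6 pairs exceeded 0.1. Alternatives were other scalings, filters on dim genes, eBayes settings, array weights, the methods' test, a replicate block, and fits without single or several livers. Figures were drawn with matplotlib 3.10.9.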

Additional observations from a re-analysis of the deposited data

Results flagged for a closer look

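Of 38 sets of 6 livers examined (10 genes and 9 within-liver differences, in each group), 4 held 1 liver far from the other 5, where chance alone gives about 1 in 20. Apoc1 was at 12.98 in ChREBP liver 3, with the nearest ChREBP liver at 12.95, and at 12.90 in GFP liver 1, with the nearest GFP liver at 12.93. Both gaps were under 0.04 log2 units. Apoa4 minus Apoc3 was -1.38 in ChREBP liver 6 and -1.04 in the nearest ChREBP liver. Apoc3 minus Apoa1 was -0.02 in ChREBP liver 2 and -0.17 in the nearest ChREBP liver.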

How the results depend on the processing

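Apoa4, Apoc2, Mttp and Apoa1 kept their direction and passed the threshold under all 25 alternatives, with log2 changes from 1.57 to 1.68, 0.82 to 0.90, 0.31 to 0.42 and -0.25 to -0.14 (limma or the methods' test). Apob lost its call under 5 alternatives, with changes of -0.10 after a second quantile normalization, -0.089 after cyclic loess, -0.13 when ChREBP livers 4 and 5 were dropped, -0.15 when both livers numbered 6 were dropped and -0.12 without all 4 livers. Apoc3 lost its call without these 4 livers (0.14) and with a block for the replicate number (0.14, limma adjusted p = 0.0581). The block also ended the call of Apoc3 minus Apoa5 (0.12, exact permutation adjusted p = 0.0703) and changed no other call among the genes and pairs. It gave 4787 called genes, against 5859 without it, and 1 ChREBP liver of 6 correlated best with its own number. Apoe passed by the methods' test, unadjusted or adjusted (0.037), and after cyclic loess (0.11), as did Apoc1 after cyclic loess (0.090). Genes that did not pass changed sign when arrays were centred on their median (Apoa2 -0.027, Apoa5 -0.016 and Apoc1 -0.014) and, for Apoa5, without ChREBP livers 4 and 5 (-0.014) or without all 4 livers (-0.031). The cause of these moves was not tested.

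Without each liver in turn the number of called genes among the 10 was 6 in every fit, and log2 changes ranged from -0.013 to 0.016 for Apoa2, from -0.0041 to 0.031 for Apoa5 and from -0.17 to -0.13 for Apob. Over the alternatives with an adjusted p the count of called genes lay between 4686 and 7290, and it was 8558 by the methods' test at an unadjusted p under 0.05. Between 1002 and 1263 called genes changed at least 1.5-fold over all alternatives. The share of higher genes moved with scaling, with 2376 higher and 4914 lower after centring, 3229 and 2332 after cyclic loess, and 2728 and 3131 as deposited.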
